A study of Rattus norvegicus with 90 samples.

Results

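The comparison described here is that of primary rat hepatocytes exposed for 24 h to a low dose of thioacetamide-S-oxide with hepatocytes kept for 24 h in vehicle. Its members were chosen by their sample labels (cell type, dose and duration) and are 9 of the 90 libraries of the series. The low-dose group held 5 libraries (MS-111 to MS-115, 0.025 mM) and the vehicle group held 4 (MS-181, MS-182, MS-184 and MS-185). Vehicle library MS-183 was left out because only 8.33% of its 2993135 estimated counts lay on transcripts. The cells were bought as cryopreserved hepatocytes of Sprague-Dawley rats, and all groups were plated on collagen and cultured in maintenance medium, which was also the vehicle, before exposure. Cultures at 9 h, with vehicle, the low dose or the high dose of 0.125 mM, and high-dose cultures at 24 h are used only where they show how the compared groups stand. The sources used here do not say how many animals or lots of cells the cultures came from, so the p-values measure the spread between these libraries, which may be technical.

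Thioacetamide is a classic liver toxicant that has to be oxidised by the liver before it does harm. Cytochrome P450 enzymes and flavin-containing monooxygenases turn it into thioacetamide-S-oxide, and a further oxidation gives a reactive product that binds to proteins and lipids. Hepatocytes, the main cells of the liver, make most plasma proteins and bile acids and carry out this kind of oxidation, and they lose part of their liver-specific expression with time in culture. Giving the S-oxide to cells in a dish omits the first step of the activation.

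The measurement was the number of sequencing read pairs that Kallisto assigned to each transcript, called estimated counts. The libraries were deep, with 20593560 to 30185104 estimated counts in the vehicle group and 26782233 to 31923877 in the low-dose group, of which 84.1% to 93.5% and 90.9% to 94.3% lay on transcripts. Levels are given as CPM, the counts scaled to library size after TMM normalization, and they compare 1 transcript between libraries, not transcripts of different length. The transcripts carry Ensembl identifiers only. The tables used here do not pair these identifiers with genes (0 were matched), so genes, pathways and hepatocyte markers could not be named or checked, and transcripts are described by their identifiers, levels and lengths.

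At 24 h, low-dose and vehicle hepatocytes differed in a large part of the transcriptome. The term differentially expressed gene (DEG) stands in what follows for a transcript that passed 2 thresholds, an adjusted p of 0.05 or less in edgeR's quasi-likelihood test (Benjamini-Hochberg adjustment) and a fold difference of 1.51 or more. Of the 16962 transcripts tested, 6279 were DEGs, which is 37% of all tested. Of these, 3413 (20.1% of all tested) were higher and 2866 (16.9%) were lower at the low dose, so that 54.4% of the DEGs were higher. An unadjusted p-value under 0.05 in the same edgeR test was found for 11391 transcripts, or 67.2%. With vehicle library MS-183 kept in, 3228 transcripts were DEGs.

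The difference was large against the spread between libraries of a group. The mean absolute log2 fold change over all transcripts tested was 0.74 and the median absolute value was 0.49, while the median signed value was 0.01. Taken one by one, the low-dose libraries had a mean absolute distance of 0.62 ± 0.02 from the vehicle mean in log2 CPM (SD, n = 5). Within a group, the median SD of a transcript's log2 CPM was 0.15 in vehicle and 0.13 at the low dose. The Spearman correlation of the transcript levels was 0.983 to 0.988 between vehicle libraries and 0.988 to 0.991 between low-dose libraries, but 0.928 to 0.946 between a vehicle and a low-dose library. For 9484 of the 16962 transcripts (55.9%), all libraries of one group lay above all libraries of the other, with 5070 (29.9%) higher and 4414 (26%) lower at the low dose. No 2 of the libraries held identical values (0 pairs).

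Most DEGs differed by less than 4-fold. Between the threshold and 2-fold, 1323 were higher and 1520 lower at the low dose. From 2-fold to 4-fold, 1411 were higher and 1003 lower, and from 4-fold to 16-fold, 572 were higher and 257 lower. The share that was higher therefore went from 46.5% to 58.5% and 69.0% over these classes. In the class of 16-fold or more, 107 were higher and 86 lower (55.4% higher), and some of these folds rest on counts near 0 in one group. In the smallest class the direction depended on the scaling, with 54.7% higher under upper-quartile normalization and 52.7% with library size only.

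**Figure D1:**
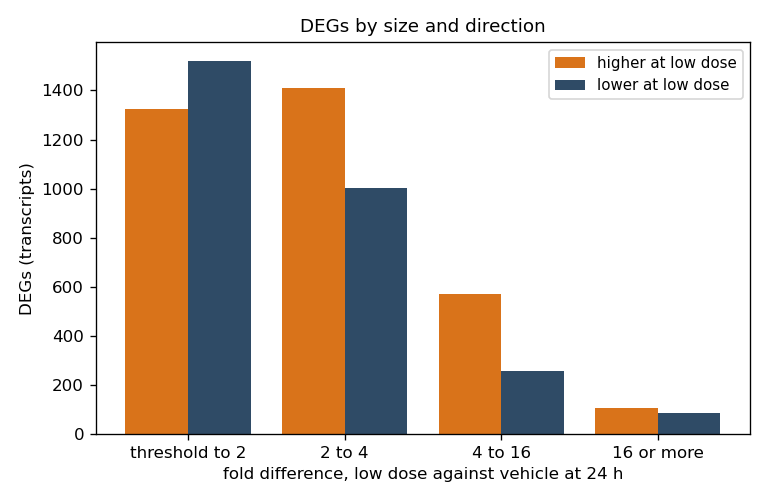
Bars give the number of DEGs (y axis) in each class of fold difference between low-dose and vehicle hepatocytes at 24 h (x axis), with orange bars for transcripts higher and blue bars for transcripts lower at the low dose. Lower transcripts outnumber higher ones only in the smallest class, 1520 against 1323 (not so under upper-quartile normalization or with library size only), and the largest excess of higher transcripts in proportion is in the class of 4 to 16-fold, 572 against 257.

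The direction of the DEGs differed with the level of the transcript. The tested transcripts were put into 5 classes of equal size by mean log2 CPM. In the lowest class, 38.2% were DEGs and 65.4% of these were higher at the low dose. In the highest class, 31.9% were DEGs and 41.0% of these were higher. The shares of higher DEGs were in descending order across the classes, with 63.6%, 54.2% and 41.9% between these ends. Under upper-quartile normalization the shares of higher DEGs were 69.5% in the lowest and 50.9% in the highest class, and with library size only 68.6% and 49.0%. The DEGs of low level were thus mostly higher at the low dose under each scaling, while the excess of lower ones in the highest class was lost under upper-quartile normalization.

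The most abundant transcripts were also examined. Among the 100 transcripts with the highest TPM (a relative level that takes transcript length into account), 11 were DEGs that were higher and 28 were DEGs that were lower at the low dose. Of all transcripts tested, 20.1% were DEGs that were higher and 16.9% DEGs that were lower. The log2 fold changes of the 100 ran from -3.07 to 1.83. Under upper-quartile normalization, 14 were higher and 17 lower. The DEGs that were lower at the low dose held 28.4% ± 2.15 of the transcript counts in vehicle (SD, n = 4) and 14.6% ± 0.44 at the low dose (SD, n = 5). The DEGs that were higher held 9.54% ± 0.36 in vehicle and 22.9% ± 0.91 at the low dose. These shares were computed on the transcripts that the comparison itself selected and are a description of its size. By transcript length, 32.1% were DEGs in the class of the shortest and 39.3% in that of the longest, with 56.6% and 49.2% of these higher (63.97% and 56.5% under upper-quartile normalization).

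The 9 h cultures and the high-dose cultures at 24 h show where each of the compared groups stood among the hepatocytes. In a principal component analysis of 29 hepatocyte libraries over 18452 transcripts, the first component took 31.4% of the variance. The vehicle libraries at 24 h scored from -89.0 to -82.4 on it, and the other 25 libraries from -13.6 to 29.2. The low-dose libraries at 24 h scored from 5.20 to 15.0 and lay on the side of the 9 h cultures. It was on the second component (15.8% of the variance) that the low-dose libraries at 24 h stood apart, with scores from -45.8 to -38.8, and there the vehicle libraries at 24 h scored from -0.59 to 6.31. The high-dose libraries at 9 h lay at the other end of this component, from 37.3 to 46.4.

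**Figure D2:**
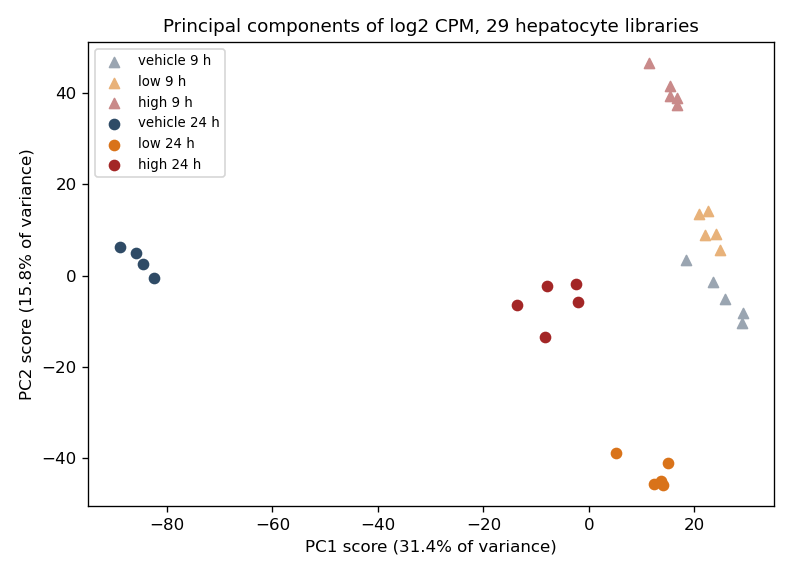
Each point is 1 of 29 hepatocyte libraries, placed by its scores on the first (x axis) and second (y axis) principal components of log2 CPM, with circles for 24 h, triangles for 9 h and colours for vehicle, low and high dose. The 4 vehicle libraries at 24 h lie at or below -82.4 on the first component, far from all other libraries, and the 5 low-dose libraries at 24 h lie at or below -38.8 on the second.

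Distances between group means gave the same picture. The root mean square difference of mean log2 CPM over these transcripts was 0.81 between vehicle and low dose at 24 h. Vehicle at 24 h differed from every other hepatocyte group by 0.72 to 0.83. Low dose at 24 h differed by 0.44 from vehicle at 9 h, by 0.45 from low dose at 9 h, by 0.45 from high dose at 24 h and by 0.62 from high dose at 9 h. In these libraries the low-dose cultures at 24 h were nearer to untreated cultures at 9 h than to untreated cultures at 24 h.

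The library numbers in the labels run from MS-181 to MS-185 for vehicle at 24 h, and from MS-91 to MS-105 and MS-111 to MS-120 for the other hepatocyte groups. The labels do not say whether the numbers stand for separate thaws, extractions or sequencing runs. As all vehicle libraries at 24 h are in the first set of numbers and all low-dose libraries in the second, any effect of such a step and the effect of the low dose at 24 h cannot be told apart.

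Each DEG was therefore sorted by which of the compared groups had left the range of the 10 low-dose and vehicle libraries at 9 h. A group was counted as having left it where all of its libraries lay beyond all 10, on the side of the difference. For 3682 DEGs (58.6%), the vehicle group alone had left the range, and this class held 37.5% of all transcripts tested. For 651 DEGs (10.4%), the low-dose group alone had left it, against 12.1% of all transcripts tested. Both groups had left it, on opposite sides, for 671 (10.7%, against 4.59% of all tested), and neither had for 1275 (20.3%, against 45.8%). The vehicle-only class was thus the largest, but its share depended on the libraries used. With the high-dose libraries at 9 h added to the range it held 3040 of the 6279 DEGs and the low-dose-only class 806, and with MS-183 kept in it held 1517 of 3228.

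The split differed somewhat by direction. Among the DEGs that were higher at the low dose, the vehicle group alone had left the 9 h range in 1797 and the low-dose group alone in 443. Among those that were lower, the numbers were 1885 and 208. The vehicle-only class thus held 52.7% of the higher DEGs, against 36.2% of all tested transcripts with a higher mean, and 65.8% of the lower ones, against 38.8%. The low-dose-only class held 13.0% of the higher DEGs, close to its 13.1% of all tested transcripts on that side, and 7.26% of the lower ones, against 11.1%. DEGs in the vehicle-only class had a median absolute log2 fold change of 1.09 and those in the low-dose-only class 0.93.

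**Figure D3:**
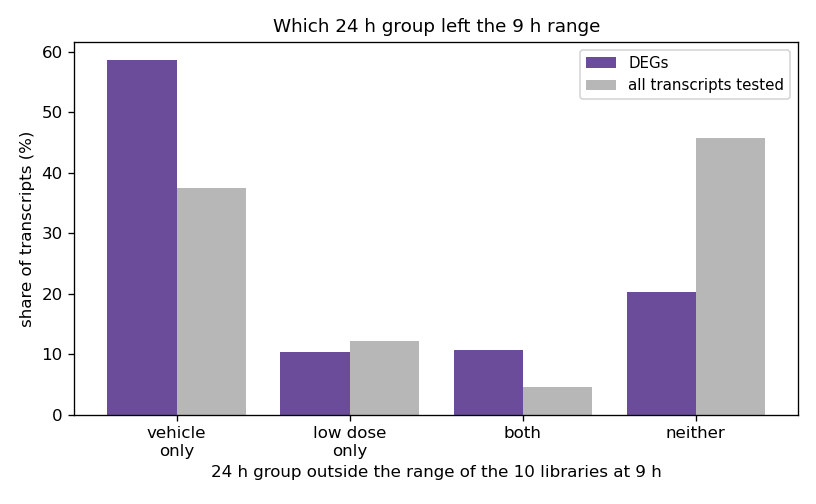
Bars give the share (y axis, percent) of the 6279 DEGs (purple) and of all 16962 transcripts tested (grey) in each class, where a class names the 24 h group that lay wholly outside the range of the 10 vehicle and low-dose libraries at 9 h (x axis). Vehicle only is the largest class of DEGs at 58.6%, and low dose only holds 10.4%.

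A pair of transcripts was named for the largest differences among the 3439 DEGs whose groups did not overlap and whose mean log2 CPM reached 3. The largest rise by edgeR was that of ENSRNOT00000013423 (1415 bases). In vehicle at 24 h its level was 0, 0.0512, 0.0353 and 0 CPM, and at the low dose it was 24.1, 27.8, 28.0, 19.8 and 31.01 CPM. The groups did not overlap, and the transcript was near absent from every vehicle library at 24 h. In all, 3620 counts at the low dose stood against 2 in vehicle, a ratio of 1165 with a 95% interval of 322 to 9622 that covers counting error only. The log2 fold change from the fit was 9.86 (standard error 0.31, adjusted p = 3.38e-09, edgeR). This standard error was derived from the test statistic and is narrower than the counting interval, so it understates the uncertainty. The log2 fold change also depends on the value that edgeR adds to counts near 0. It was 5.67 with limma on log2(CPM + 0.5) and 7.71 with MS-183 kept in, and by limma it ranked 6 among these DEGs, while the other 3 named transcripts kept rank 1 in their sets.

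The other groups place this rise. Vehicle cultures at 9 h held 34.2 ± 4.50 CPM of ENSRNOT00000013423 (SD, n = 5) and low-dose cultures at 9 h held 28.4 ± 1.08 CPM. High-dose cultures at 24 h held 11.8 ± 2.16 CPM. Low-dose cultures at 24 h, at 26.2 ± 4.29 CPM, overlapped the range at 9 h. Both other groups at 24 h lay below all of these libraries, vehicle near 0 and the high dose from 8.76 to 14.4 CPM.

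The largest fall was that of ENSRNOT00000026473 (2638 bases). Its level was 228, 188, 212 and 208 CPM in vehicle at 24 h and 0.821, 0.480, 0.924, 1.02 and 1.45 CPM at the low dose. All 4 vehicle libraries were high and close to each other, and no low-dose library came near them. The log2 fold change was -7.82 (standard error 0.16, adjusted p = 1.93e-10, edgeR). Vehicle at 24 h stood apart from the groups not compared as well, since vehicle cultures at 9 h held 0.626 ± 0.171 CPM, low-dose cultures at 9 h 0.251 ± 0.117 CPM and high-dose cultures at 24 h 0.195 ± 0.0873 CPM (SD, n = 5 each). The low-dose libraries at 24 h, at 0.938 ± 0.349 CPM, had a range that overlapped that of vehicle at 9 h.

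A second pair was named among the DEGs whose vehicle means at 9 h and 24 h differed by at most 1.5-fold. By the same limits on level and overlap there were 945 such DEGs. This is 13.7% of the 6903 transcripts tested with such a level and such vehicle means, against 33.4% of all 10282 tested at this level. Vehicle at 24 h is also a side of the comparison, so leaving out transcripts whose vehicle mean moved lowers the share in part by construction. Of the 945, 405 were higher and 540 lower at the low dose. This balance turned under other scalings, with 641 and 279 under upper-quartile normalization and 482 and 410 with library size only.

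The largest rise in this set was that of ENSRNOT00000028793 (2757 bases). Its level was 1.55, 1.74, 0.812 and 1.89 CPM in vehicle at 24 h and 13.3, 10.6, 12.2, 16.3 and 15.2 CPM at the low dose. Every low-dose library lay above every vehicle library by a wide gap. This was a log2 difference of 3.17 with a standard error of 0.23 (adjusted p = 8.38e-07, edgeR), a 9.01-fold rise. With MS-183 kept in, it was 2.01 and did not pass the test (adjusted p = 0.211, edgeR).

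ENSRNOT00000028793 was also higher at the low dose at 9 h. Vehicle held 2.04 ± 0.302 CPM and the low dose 8.45 ± 0.767 CPM at that time (SD, n = 5 each), which is 2.04 higher on the log2 scale (standard error 0.12, adjusted p = 2.29e-06, edgeR). The high dose held 18.2 ± 3.02 CPM at 9 h and 26.7 ± 1.65 CPM at 24 h. Its group means were thus in the order vehicle, low dose, high dose at both times. The low-dose rise was larger at 24 h than at 9 h by 1.14 on the log2 scale (standard error 0.25, adjusted p = 0.00071, edgeR). This did not hold with MS-183 kept in (0.61, adjusted p = 0.553, edgeR). As the transcript was chosen for its rise at 24 h, these values are a description.

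The largest fall in this set was that of ENSRNOT00000052130 (1950 bases). Vehicle libraries at 24 h held 73.2, 61.01, 78.2 and 73.3 CPM, and low-dose libraries held 6.28, 5.35, 6.11, 14.6 and 9.98 CPM. The groups did not overlap, and among the low-dose libraries MS-114 and MS-115 were the highest. The log2 fold change was -3.11 (standard error 0.26, adjusted p = 2.05e-06, edgeR), an 8.62-fold fall. High-dose cultures at 24 h held 12.1 ± 2.33 CPM (SD, n = 5), a range that overlapped that of the low dose.

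At 9 h the groups of this transcript overlapped. ENSRNOT00000052130 stood at 83.3 ± 22.3 CPM in vehicle, 73.6 ± 10.6 CPM at the low dose and 86.5 ± 15.5 CPM at the high dose (SD, n = 5 each). The low dose differed from vehicle at 9 h by -0.17 on the log2 scale, with a standard error of 0.17 (adjusted p = 0.545, edgeR), and did not pass the test. The fall at 24 h minus the difference at 9 h, the interaction, was -2.93 on the log2 scale (standard error 0.32, adjusted p = 2.19e-07, edgeR). As the transcript was chosen for its fall at 24 h, this value is a description. The estimated counts of both transcripts of this pair were whole numbers (within 1e-06) in the 9 libraries, as they are where no read is divided with a similar transcript. Those of ENSRNOT00000013423 and ENSRNOT00000026473 were not whole in every library, so some of their reads may be divided with similar transcripts. The part of this in their differences was not tested.

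**Figure D4:**
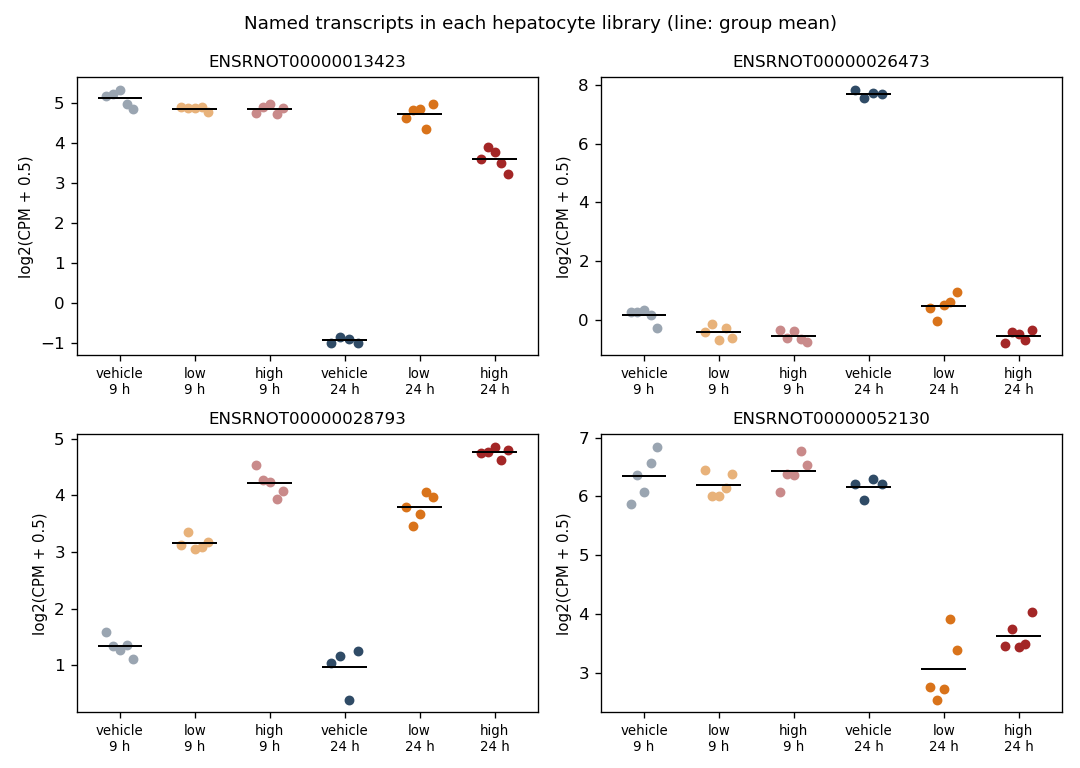
Each point is 1 hepatocyte library and each line a group mean, on the scale log2(CPM + 0.5) (y axis), for the 6 groups of hepatocytes (x axis, points spread sideways for legibility). In the upper panels the vehicle libraries at 24 h lie alone, near the bottom for ENSRNOT00000013423 and near the top for ENSRNOT00000026473, and in the lower panels vehicle lies at a like level at both times while the low-dose libraries at 24 h lie far above (ENSRNOT00000028793) or below (ENSRNOT00000052130) it.

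Transcripts that were present in one group and near absent in the other were few. Present was set at 1 CPM or more in every library and near absent at under 0.1 CPM in every library. By these limits 14 transcripts were present at the low dose and near absent in vehicle at 24 h, and 11 were the reverse. Of the 14, 10 were also present in every vehicle library at 9 h and 8 in every high-dose library at 24 h, and 0 were near absent throughout any other group. Of the 11, 0 were present throughout any other group. All 25 were DEGs, which the limits themselves bring about. Of these, 3 of the 14 and 3 of the 11 had whole-number counts (within 1e-06) in the 9 libraries, as did 6629 of all 16962 transcripts tested. With MS-183 kept in, 9 transcripts were present at the low dose and near absent in vehicle.

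The low dose at 9 h, measured on other libraries, gave far fewer differences. Of 16572 transcripts tested, 387 (2.34%) were DEGs, 202 of them lower than vehicle, and the mean absolute log2 fold change was 0.22. Of the 380 that were also tested at 24 h, 233 (61.3%) were DEGs there, against 37% of all transcripts tested at 24 h. Their directions mostly differed between the times. The DEGs shared in the same direction numbered 61, which is 15.8% of those at 9 h and 0.971% of those at 24 h. Those shared in opposite directions made up 44.4% of the DEGs at 9 h and 2.74% of those at 24 h. With MS-183 kept in, 25 were shared in the same and 106 in opposite directions.

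The opposite directions were found on both sides. Of the 380 DEGs of 9 h that were tested at 24 h, 199 were lower at 9 h and the rest were higher. Among those higher at 9 h, 39 were DEGs that were higher at 24 h and 66 were DEGs that were lower. Their median log2 fold change at 24 h was -0.26. Among the 199 lower at 9 h, 106 were DEGs that were higher at 24 h and 22 were DEGs that were lower. Their median was 0.70. The others on both sides were not DEGs at 24 h. Of all transcripts tested at 24 h, 20.1% were DEGs that were higher and 16.9% DEGs that were lower. Over the 16192 transcripts tested at both times, Pearson's r between the differences at 9 h and 24 h was -0.12 and Spearman's rho -0.19, across transcripts, which are not independent replicates. ENSRNOT00000028793, higher at both times, and ENSRNOT00000026473, lower at both times (-1.30 on the log2 scale at 9 h, standard error 0.36, adjusted p = 0.0281, edgeR), were in the smaller class.

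**Figure D5:**
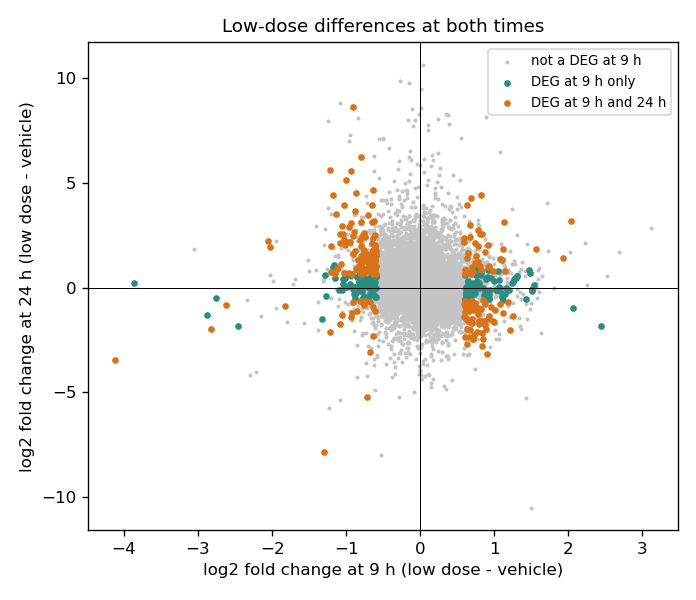
Each point is 1 of 16192 transcripts, placed by its log2 fold change of low dose minus vehicle at 9 h (x axis) and at 24 h (y axis). Of the 233 DEGs of both times (orange), 61 lie in the quadrants of the same direction and the rest in those of opposite direction.

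The difference between the times was tested directly as an interaction, the low-dose difference at 24 h minus that at 9 h. It passed the same thresholds for 6706 of 17892 transcripts (37.5%, edgeR), with 3731 more positive and 2975 more negative at 24 h. As vehicle at 24 h is part of this contrast, any effect tied to its library numbers and the effect of the dose cannot be told apart here either. The 4 named transcripts were chosen for their difference at 24 h, which is part of this contrast, so their own interaction values are a description.

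The tables also hold genomic intervals, named by chromosome, start and end in the Rnor_6.0 genome and not described by the methods. In 1 fit with the transcripts, 10404 intervals were tested and 3595 (34.6%) passed the thresholds, 1415 higher and 2180 lower at the low dose. The balance of directions depended on the features in the fit and on vehicle library MS-182, with 1778 higher and 1790 lower where the intervals were fitted alone, and 1753 higher and 1604 lower without MS-182. The largest rise was in chr10:70637833-70639361 (1529 bases, with no gene given for it in the tables). It held 0.481, 0.407, 0.382 and 0.390 CPM in vehicle and 14.3, 16.8, 14.9, 13.0 and 16.5 CPM at the low dose. The groups did not overlap (log2 fold change 5.03, standard error 0.15, adjusted p = 5.04e-10, edgeR), and vehicle cultures at 9 h, at 9.90 ± 2.30 CPM (SD, n = 5), were on the side of the low dose.

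The largest fall was in chr14:46603725-46623724 (20000 bases). It held 21.4, 63.3, 19.6 and 47.8 CPM in vehicle and 0.607, 0.381, 1.30, 2.13 and 1.39 CPM at the low dose, with MS-182 and MS-185 the highest. The log2 fold change was -5.21 (standard error 0.48, adjusted p = 3.66e-06, edgeR), or -4.27 without MS-182 and MS-185 and -7.70 with MS-183 kept in, and vehicle cultures at 9 h held 1.56 ± 0.725 CPM (SD, n = 5).

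The same vehicle libraries were the highest in intervals of other kinds. In this paragraph, CPM are counts scaled to the transcript counts of the library, without TMM. On 50 intervals of 12 unplaced scaffolds, picked by scaffold name, the vehicle libraries together held 28.9, 193, 21.8 and 97.9 CPM, against 3.31 to 5.97 in the other 25 hepatocyte libraries. On 23 intervals of chromosome Y they held 7.10 to 28.2 CPM, against 5.78 to 7.25 at the low dose. The median autosomal interval of full length stood at 0.268, 0.903, 0.200 and 0.546 CPM in the vehicle libraries and at 0.190 to 0.217 at the low dose. MS-182 and MS-185 were thus the highest by each of these measures. Without both of these libraries 6300 transcripts were DEGs, against 6279 with them, while 1943 intervals were higher and 1199 lower, against 1415 and 2180. With MS-183 kept in, 276 intervals passed. The part of these interval levels in the transcript differences was not tested.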

How the data were processed

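RNA of primary rat hepatocytes was measured by poly-A-enriched paired-end sequencing. Per the submitters' processing notes, reads were quantified with kallisto 0.42.4 on Rnor_6.0. The authors deposited, per library, the estimated counts of each target (reads that fit several transcripts are divided among them) and its TPM, a level scaled for transcript length and library size. The authors' test with Sleuth was not repeated here.

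Groups came from the sample labels. Estimated counts of 40071 transcripts were rounded to whole numbers and tested with edgeR 4.0.16 under R 4.3.3 (TMM after filterByExpr, then glmQLFit and glmQLFTest) between 5 low-dose and 4 vehicle libraries, with Benjamini-Hochberg adjustment over all transcripts tested. The thresholds for DEGs were 0.05 for the adjusted p and 0.41 for the size of the natural-log fold change. Standard errors were the size of the log2 fold change divided by the square root of F. Per-library CPM of named transcripts were scaled over all hepatocyte libraries but MS-183. The Pearson and Spearman values across transcripts carry no test. Library measures were compared by two-sided exact permutation tests over the 126 arrangements of the libraries.

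The named transcripts are the largest rise and fall among DEGs whose groups did not overlap and whose mean log2 CPM reached 3, then the same among those with vehicle means within 1.5-fold between the times, and the intervals follow the first part. The members and lists were chosen with earlier results of these data known. The alternatives were DESeq2 1.42.0, upper-quartile or no normalization, other filters on counts, limma 3.58.1 on log2(CPM + 0.5), log2(TPM + 1), all groups in one fit, other thresholds, intervals in the fit, and libraries left out or kept in. The fit was also run on simulated counts in which few transcripts changed, about equally in both directions. It therefore does not test the scaling for data such as these, where many transcripts differ. At this depth counting error is small for all but scarce transcripts.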

Additional observations from a re-analysis of the deposited data

Results flagged for a closer look

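The low-dose difference from vehicle at 24 h differed from that at 9 h for 6706 transcripts by the interaction test of edgeR. Vehicle at 24 h is part of this contrast, so the effect of the dose and any effect tied to its library numbers cannot be told apart. The named transcripts, which were chosen for their difference at 24 h, were among these 6706 transcripts. Their differences were 10.15 for ENSRNOT00000013423, -6.49 for ENSRNOT00000026473, 1.14 for ENSRNOT00000028793 and -2.93 for ENSRNOT00000052130 on the log2 scale. That of ENSRNOT00000013423 rests on vehicle counts near 0 and was 5.92 with limma on log2(CPM + 0.5) and 8.30 with MS-183 kept in.

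Of 20 sets of library values examined, 2 held a library far from the others of its group, and chance gives about 1 in 20. Vehicle library MS-185 had 13.3% of its transcript counts in its 10 most abundant transcripts, against 8.90% to 9.42% in the other vehicle libraries (gap over range 0.883). Low-dose library MS-113 had 22598 transcripts detected, against 22223 to 22328 in the others (gap over range 0.72).

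In the genomic intervals, which lie outside the transcripts compared, 3595 of 10404 tested (34.6%) differed between low dose and vehicle, 1415 of them higher and 2180 lower at the low dose, a balance that turned without vehicle library MS-182 (1753 higher and 1604 lower).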

How the results depend on the processing

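No paired analysis was possible because the library numbers are not shared between groups. The DEG count stayed between 6001 and 6400 with each library left out in turn, and between 6008 and 6848 over the other tests, normalizations and filters, of which the upper-quartile fit and the fit without further normalization gave 61.9% and 59.9% higher DEGs against 54.4%. Upper-quartile scaling moved the median log2 fold change to 0.10. With MS-183 kept in, there were 3228 DEGs (1918 higher, 1310 lower). With no fold threshold there were 10835 (5455 and 5380), and at 2-fold or more 3436 (2090 and 1346). The interaction count was 10338 with no fold threshold and 3985 at 2-fold.

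The mean absolute log2 fold change was 1.13 with no filter beyond 1 count, 0.59 with limma, 0.82 with MS-183 kept in, 0.87 without MS-182 and MS-185 (chosen after seeing the data), 0.52 from log2(TPM + 1) and 0.72 to 0.79 with single libraries left out. With MS-183 kept in, ENSRNOT00000028793 had a log2 fold change of 2.01 (adjusted p = 0.211, edgeR) and an interaction of 0.61 (adjusted p = 0.553, edgeR), and 1517 DEGs were in the vehicle-only class. The DEGs shared with 9 h, a result added after seeing the data, were 25 in the same direction and 106 in opposite directions with MS-183 kept in, 691 and 1560 with no fold threshold, and 13 and 19 at 2-fold.

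The transcripts present at the low dose only were 7 from 2 CPM, 8 under 0.05 CPM and 9 with MS-183 kept in, and those present in vehicle only were 5 and 7 under the first 2. Intervals called were 276 (37 higher, 239 lower) with MS-183 kept in, and without MS-182 and MS-185 1943 were higher and 1199 lower. The balance of interval directions also turned without MS-182 (1753 and 1604) and was near even with intervals alone in the fit (1778 and 1790). Low-dose libraries exceeded vehicle by 4758583 estimated counts (exact permutation p = 0.0714), by 9039358 with MS-183 kept in (exact p = 0.0317) and by 3490766 to 6687948 with single libraries left out. They exceeded vehicle by 341 transcripts detected (exact permutation p = 0.167), or 216 to 564 with single libraries left out. Without MS-184 the first and without MS-182 the second had exact p = 0.0179. The share on transcripts did not pass the test (exact p = 0.341). No log2 fold change of a named transcript or interval and no difference in a library measure changed sign (0). The balance of higher and lower calls did turn, in the intervals as given and, in DEGs, in these classes. Under upper-quartile normalization the share higher went from 46.5% to 54.7% in the smallest fold class, from 41.9% to 51.1% and from 41.0% to 50.9% in the upper 2 level classes, and from 49.2% to 56.5% in the longest transcripts. With library size only it was 52.7% in the smallest fold class and 54.4% in the longest. The ranks of the named transcripts and the other scalings of the set with like vehicle means were added after seeing the data.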
